A study of Sus scrofa with 8 samples.

Results

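The genes described here encode the enzymes that write and erase histone and DNA methylation and histone acetylation. They were chosen by symbol: every RefSeq protein-coding gene of the pig assembly Sscrofa11.1 whose symbol is KDM, KMT, SETD, EZH, PRMT, KAT, HDAC, SIRT, DNMT or TET followed by a number. The rule found 76 genes. Of these, 75 lay on chromosomes 1 to 18 or X and were analysed among 19487 protein-coding genes placed there, and PRMT2, on an unplaced scaffold, was not analysed here. The 75 genes comprise 16 KDM, 8 KMT, 9 SETD, 2 EZH, 7 PRMT, 8 KAT, 11 HDAC, 7 SIRT, 4 DNMT and 3 TET genes.

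Pig embryonic fibroblasts (PEFs), cultured from Large White fetuses at 35 days of age, were profiled by ChIP-seq for 3 targets. H3K4me3, trimethylation of histone H3 at lysine 4, marks the starts of active and poised genes. H3K27ac, acetylation of H3 at lysine 27, marks active promoters and enhancers, and CTCF is the zinc finger protein that binds insulators and loop anchors. There were 2 libraries for each target and 1 condition with no treatment or genetic change, so nothing was contrasted and no test was run. Where the replicates came from separate cultures or fetuses is not given in the sources used here, so the spread between them may be technical.

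Histone methylation is written by the KMT, SETD and EZH lysine methyltransferases and by the PRMT arginine methyltransferases, and is removed by the KDM demethylases. KAT enzymes add acetyl groups to lysine, and HDACs and the NAD-dependent sirtuins take them off. DNMT enzymes methylate cytosine, and TET enzymes oxidise the methyl group as a step towards its removal. EZH1 and EZH2 are the alternative catalytic subunits of Polycomb repressive complex 2 (PRC2). Several sirtuins act in mitochondria, and some SETD and PRMT enzymes act mainly on proteins other than histones.

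Each library was deposited as a list of narrow peaks, with the fold enrichment of each peak over its input control at the summit. The lists held 37932 and 43516 peaks for H3K4me3, 74983 and 81164 for H3K27ac, and 40289 and 44682 for CTCF (replicate 1, then replicate 2, an order kept for every pair of values below). Read depths behind single peaks are unknown, so no counting interval can be given. The H3K4me3 libraries differed in scale, with a median fold enrichment over all genes marked in both of 52.2 and 25.4, and CTCF replicate 1 was sequenced less deeply than replicate 2. Levels were therefore compared within a library, except that genes were picked for naming by the mean of the replicates. The fibroblast label was checked on 10 fibroblast genes, including COL1A1, VIM and PDGFRA. All 10 had H3K4me3 and H3K27ac at the gene start in both replicates, against 58.9% of all protein-coding genes. FN1, 1 of the 10, had weak H3K4me3, at 3.13 and 5.38. Of 16 genes of other lineages measured, 8, among them EPCAM, CDH1 and SOX2, had H3K4me3 in both replicates, against 68.9% of all genes. MYOG, a muscle regulator, was the 1 with H3K27ac in both, against 60.7% of all genes.

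The starts of most of these enzyme genes carried both histone marks. A gene start is the 5′ end of the RefSeq gene, and it was called marked where a peak reached to within 1 kb of it. H3K4me3 marked 65 of the 75 gene starts in both replicates, against 68.9% of all protein-coding genes. H3K27ac marked 66 of 75, against 60.7%, and 64 of 75 had both marks in all 4 histone libraries, against 58.9%. In single libraries, H3K4me3 was called at 66 gene starts in each replicate (background 69.6% in each), and H3K27ac at 66 and 67 (background 61.3% and 62.7%). H3K27ac was missing in both replicates at 8 of 75 gene starts, against 36.7% of all genes. Neither mark was called in any of the 4 libraries at 7 of 75 gene starts, against 27.5% of all genes. The H3K4me3 share depended on counting a peak by its interval: with the summit itself required within 1 kb, 39 of the 75 genes remained in both replicates, against 52.2% of all genes, and 34 had both marks, against 41.7%. The summits of the enzyme genes lay a median of 522 and 875 bp from the gene start, and those of all marked genes 405 and 589 bp.

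**Figure D1:**
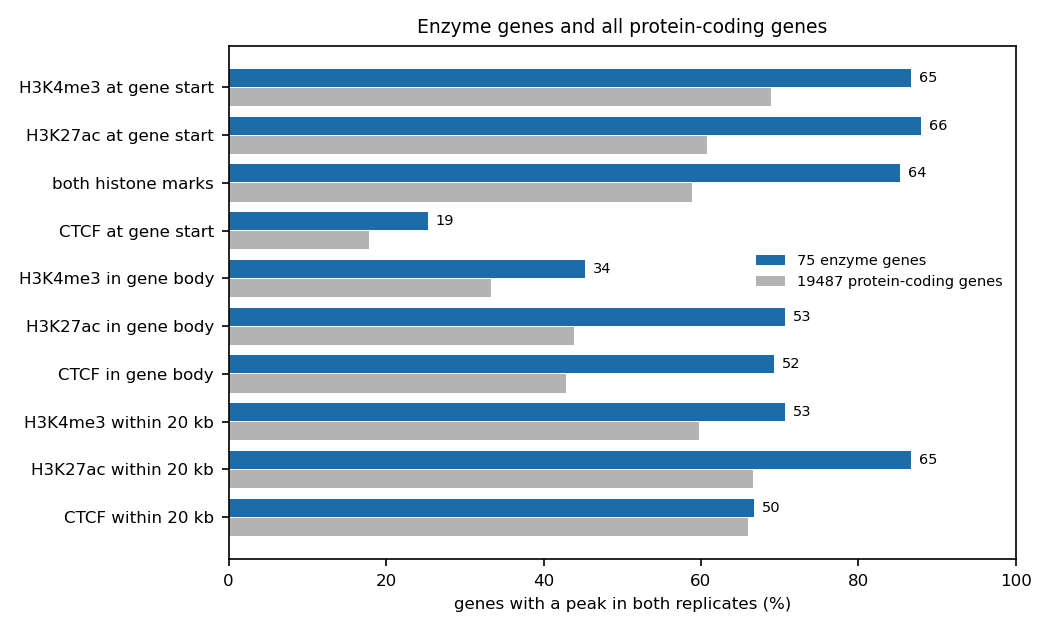
Share of genes (horizontal axis, percent) with a peak in both replicates at the gene start, in the gene body or within 20 kb of the gene, for the 75 enzyme genes (blue) and 19487 protein-coding genes (grey), and the number beside each blue bar counts enzyme genes. The blue bar is longer for both histone marks at the gene start and for H3K27ac and CTCF in the gene body, and the bars for CTCF within 20 kb are nearly equal (66.7% and 66%).

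By family, H3K4me3 and H3K27ac marked all 16 KDM starts and both EZH starts in both replicates. Of the 8 KMT starts, 7 had H3K4me3 and 8 had H3K27ac. The 9 SETD genes had 8 and 9 marked starts, the 11 HDAC genes 10 and 10, the 7 SIRT genes 6 and 6, the 8 KAT genes 6 and 6, and the 7 PRMT genes 6 and 5. Among the DNA methylation enzymes, 2 of 4 DNMT genes and 2 of 3 TET genes were marked by H3K4me3 and H3K27ac. Over all protein-coding genes the shares were 68.9% for H3K4me3 and 60.7% for H3K27ac. Families this small cannot be ranked by their shares.

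**Figure D2:**
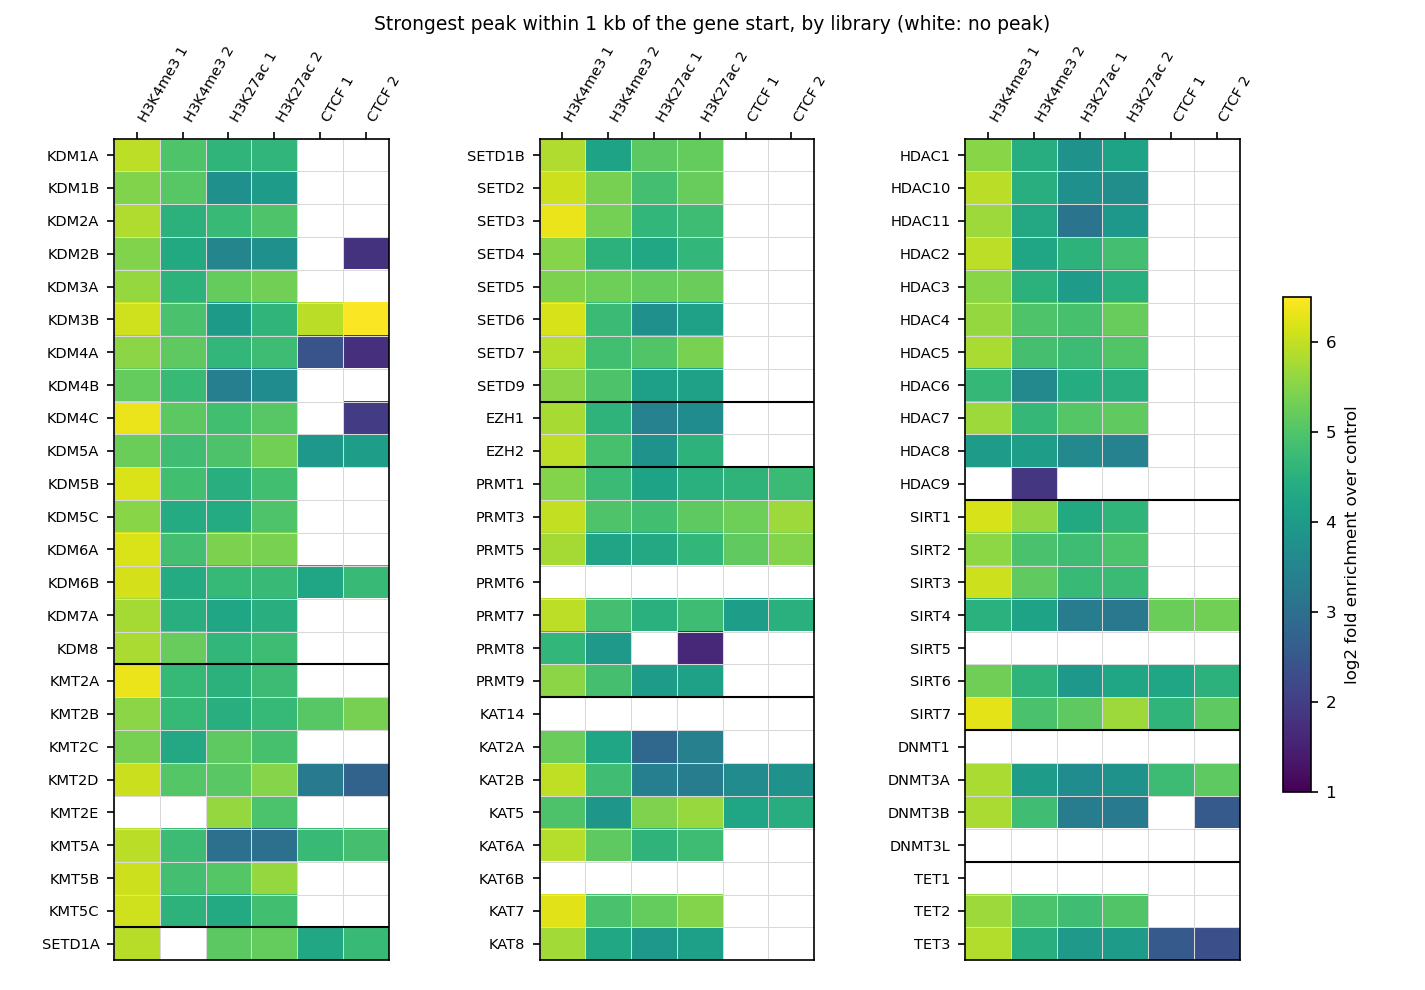
Log2 fold enrichment of the strongest peak within 1 kb of the gene start (colour scale) for each of 75 enzyme genes (rows, black lines between families) in each of 6 libraries (columns, mark and replicate), with white where no peak was called. Most rows are filled in the 4 histone columns, 19 are filled in both CTCF columns, and no HDAC row is.

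Among the cytosine methyltransferases, DNMT3A and DNMT3B, which set methylation anew, had both marks. DNMT3A had H3K4me3 at a fold enrichment of 56.0 and 16.5 and H3K27ac at 12.7 and 14.1. DNMT3B had H3K4me3 at 55.9 and 28.2 and H3K27ac at 9.93 and 9.53. Their H3K27ac lay below the median of all genes marked in both, which was 16.5 and 19.6. DNMT1, the maintenance enzyme, and DNMT3L, a cofactor without catalytic activity that is known from germ cells, had no histone mark at the gene start in any library. Among the dioxygenases, TET2 had H3K4me3 at 51.7 and 30.7 with H3K27ac at 28.3 and 32.1, and TET3 had 58.2 and 22.2 with 15.5 and 16.3. TET1, known from pluripotent and germ cells, had neither mark at its gene start. For the Polycomb enzymes, EZH1 had H3K4me3 at 55.3 and 23.9 and H3K27ac at 10.8 and 12.8, and EZH2 had 61.8 and 29.7 with 14.0 and 23.6. H3K27ac at EZH2 was above the all-gene median in replicate 2 and below it in replicate 1.

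No H3K4me3 peak lay within 1 kb of the gene start in either replicate at 8 of 75 genes, against 29.7% of all genes: DNMT1, DNMT3L, KAT14, KAT6B, KMT2E, PRMT6, SIRT5 and TET1. Allowing the start of any annotated transcript, 70 of 75 genes were marked in both replicates, against 72% of all genes. A start other than the gene start was marked in 4 of the 8 genes (DNMT1, KAT6B, KMT2E and PRMT6). Among all protein-coding genes, 566 of the 5780 without H3K4me3 at the gene start were of this kind. Such genes made up 5.33% of the 75 enzyme genes and 2.9% of all protein-coding genes. The other 4 of the 8 had no marked start, and KAT14, SIRT5 and TET1 have 1 annotated start each. Counting genes marked at their gene start too, overlapping H3K4me3 peaks of both replicates lay at an internal transcript start in 11 of 75 genes, against 7.65% of all genes. H3K4me3 was also at the gene start in both replicates in 6 of 75, against 4.57%. These shares depend on how many starts are annotated per gene, which was not compared with all genes.

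DNMT1 spans chr2:68981564-69040364 on the minus strand. Its H3K4me3 peaks had their summits 11286 and 11422 bp inside the gene, at fold enrichments of 46.3 and 17.6. H3K27ac peaks lay at 11323 and 11225 bp, at 14.9 and 17.3. Both marks thus sat over a cluster of annotated transcript starts, 8 of which lay within 1 kb of the H3K4me3 peak.

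KAT6B, a MYST family acetyltransferase, spans chr14:77390790-77597674 on the plus strand and showed the same arrangement. The H3K4me3 summits were 13593 and 13425 bp downstream of the gene start, at 67.8 and 23.1, with 10 transcript starts within 1 kb of the peak. The H3K27ac summits were at 14798 and 14791 bp, at 28.3 and 39.9. In PRMT6, an arginine methyltransferase of histone H3 at chr4:112698865-112710305 on the minus strand, the H3K4me3 summits were at 6998 and 7087 bp, at 80.1 and 31.6. H3K27ac lay at 6893 and 7049 bp, at 16.4 and 23.0. At their gene starts, 3 enzyme genes had a higher H3K4me3 peak than this in replicate 1 and 13 in replicate 2.

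The DNA at the marked and unmarked starts of these 3 genes differed in CpG content. The stretches shown run from 250 bases before to 50 bases after each start, 5′ to 3′ in the direction of transcription, with each CpG in capitals. They were read from the RefSeq copy of Sscrofa11.1. The KAT6B and PRMT6 gene starts held the fewest CpG among the unmarked gene starts, so their low counts follow from the choice. DNMT1 was added after its values were seen. Several annotated starts lay at the DNMT1 and KAT6B peaks, and only those 10965 bp and 12983 bp from the gene start were read. The DNMT1 gene start is chr2:69040315-69040614 (minus strand) and its marked start chr2:69029350-69029649 (minus strand). The KAT6B gene start is chr14:77390540-77390839 (plus strand) and its marked start chr14:77403523-77403822 (plus strand). The PRMT6 gene start is chr4:112710256-112710555 (minus strand) and its marked start chr4:112703522-112703821 (minus strand).
DNMT1 gene start, not marked: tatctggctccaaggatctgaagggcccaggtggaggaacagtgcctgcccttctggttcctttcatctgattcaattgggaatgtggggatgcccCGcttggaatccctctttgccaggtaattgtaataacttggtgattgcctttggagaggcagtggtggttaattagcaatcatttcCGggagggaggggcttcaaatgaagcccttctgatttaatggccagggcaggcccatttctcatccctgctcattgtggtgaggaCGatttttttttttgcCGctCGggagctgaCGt
DNMT1 start under the H3K4me3 peak: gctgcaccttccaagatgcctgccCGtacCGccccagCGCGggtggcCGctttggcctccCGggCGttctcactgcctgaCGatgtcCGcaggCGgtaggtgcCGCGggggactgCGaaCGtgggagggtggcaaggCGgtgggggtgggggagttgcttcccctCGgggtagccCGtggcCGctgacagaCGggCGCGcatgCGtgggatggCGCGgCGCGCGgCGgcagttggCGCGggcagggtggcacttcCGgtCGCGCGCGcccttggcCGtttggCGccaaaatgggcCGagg
KAT6B gene start, not marked: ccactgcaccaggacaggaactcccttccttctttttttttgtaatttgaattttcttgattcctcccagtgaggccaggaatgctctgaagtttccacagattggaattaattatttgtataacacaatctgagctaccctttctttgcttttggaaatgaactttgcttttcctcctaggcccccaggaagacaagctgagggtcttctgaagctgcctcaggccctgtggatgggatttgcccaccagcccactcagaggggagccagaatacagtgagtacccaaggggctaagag
KAT6B start under the H3K4me3 peak: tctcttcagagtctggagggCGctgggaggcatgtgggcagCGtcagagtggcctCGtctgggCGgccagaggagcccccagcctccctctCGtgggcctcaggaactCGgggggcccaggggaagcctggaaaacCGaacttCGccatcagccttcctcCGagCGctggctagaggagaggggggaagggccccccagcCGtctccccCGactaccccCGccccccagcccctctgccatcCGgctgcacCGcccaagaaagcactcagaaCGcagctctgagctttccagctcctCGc
PRMT6 gene start, not marked: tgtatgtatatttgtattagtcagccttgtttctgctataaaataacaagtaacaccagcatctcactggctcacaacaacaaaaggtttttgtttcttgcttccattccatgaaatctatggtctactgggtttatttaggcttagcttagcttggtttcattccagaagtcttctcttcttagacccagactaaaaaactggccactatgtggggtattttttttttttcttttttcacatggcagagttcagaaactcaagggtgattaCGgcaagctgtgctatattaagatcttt
PRMT6 start under the H3K4me3 peak: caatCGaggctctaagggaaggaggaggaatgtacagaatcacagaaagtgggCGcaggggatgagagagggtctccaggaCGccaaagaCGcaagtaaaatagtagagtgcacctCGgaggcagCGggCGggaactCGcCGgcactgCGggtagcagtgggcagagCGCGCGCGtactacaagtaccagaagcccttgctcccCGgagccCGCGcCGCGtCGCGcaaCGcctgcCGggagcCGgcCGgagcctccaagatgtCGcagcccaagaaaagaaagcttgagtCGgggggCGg

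The DNMT1 gene start held 6 CpG and its marked start 38. For KAT6B the counts were 0 and 17, and for PRMT6 they were 1 and 28. KMT2E had 3 CpG at the gene start and 29 at the marked start. Over the 8 unmarked gene starts the median was 4.5 CpG (range 0 to 9), and over the 65 starts marked in both replicates it was 25 (2 to 66). Over all protein-coding genes the medians were 4 for unmarked and 23 for marked starts. Some marked starts were also poor in CpG in this window: SETD9 held 2, DNMT3A 3, SETD4 4, TET2 4 and HDAC8 5, whereas KDM7A held 66. Among the genes named below for the highest or lowest levels or cover, KMT2C and SETD1B held the most CpG, 48 each, and are shown for comparison. The KMT2C stretch is chr18:4992963-4993262 (plus strand) and the SETD1B stretch chr14:30885543-30885842 (minus strand).
KMT2C gene start, marked: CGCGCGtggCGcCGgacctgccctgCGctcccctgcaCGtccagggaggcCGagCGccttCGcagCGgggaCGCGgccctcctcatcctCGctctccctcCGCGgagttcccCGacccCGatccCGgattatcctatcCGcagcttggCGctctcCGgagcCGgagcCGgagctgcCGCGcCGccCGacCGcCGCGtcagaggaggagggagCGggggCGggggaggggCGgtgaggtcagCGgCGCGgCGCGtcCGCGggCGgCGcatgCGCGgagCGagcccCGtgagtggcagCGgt
SETD1B gene start, marked: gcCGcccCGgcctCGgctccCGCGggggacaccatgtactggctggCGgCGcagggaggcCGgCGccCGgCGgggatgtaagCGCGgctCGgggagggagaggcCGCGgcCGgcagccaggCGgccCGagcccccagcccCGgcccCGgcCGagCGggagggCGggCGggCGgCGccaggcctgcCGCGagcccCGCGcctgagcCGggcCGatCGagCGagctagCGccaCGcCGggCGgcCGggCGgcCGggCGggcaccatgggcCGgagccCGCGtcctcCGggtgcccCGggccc

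For 4 of the 8 genes no annotated start was marked. KAT14, a subunit of an acetyltransferase complex, had H3K4me3 summits 3686 and 3264 bp upstream of its gene start, at 57.8 and 35.1, and H3K27ac at 23.7 and 31.1. This peak was within 1 kb of the start of the neighbouring gene PET117. SIRT5, a mitochondrial deacylase, had H3K4me3 6661 and 6087 bp upstream, at 52.0 and 19.4, together with H3K27ac at 15.3 and 18.1 and CTCF at 31.1 and 33.1. TET1 had H3K4me3 9257 and 8543 bp upstream, at 77.3 and 32.6. H3K27ac there was 14.2 and 14.7, and the stronger of the CTCF peaks reached 28.1 and 32.9. Neither the SIRT5 nor the TET1 upstream peak was within 1 kb of the gene start of another annotated gene. TET1 also had an H3K4me3 peak in an intron, 37833 and 37889 bp downstream, at 17.9 and 24.4. Around DNMT3L, the nearest H3K4me3 peaks in both libraries lay 6276 and 6193 bp upstream at 7.10 and 5.42, at the start of AIRE. Stronger peaks lay 13017 and 13016 bp upstream, at 36.1 and 19.2, and at the start of ICOSLG beyond the other end of the gene, at 46.2 and 22.9.

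**Figure D3:**
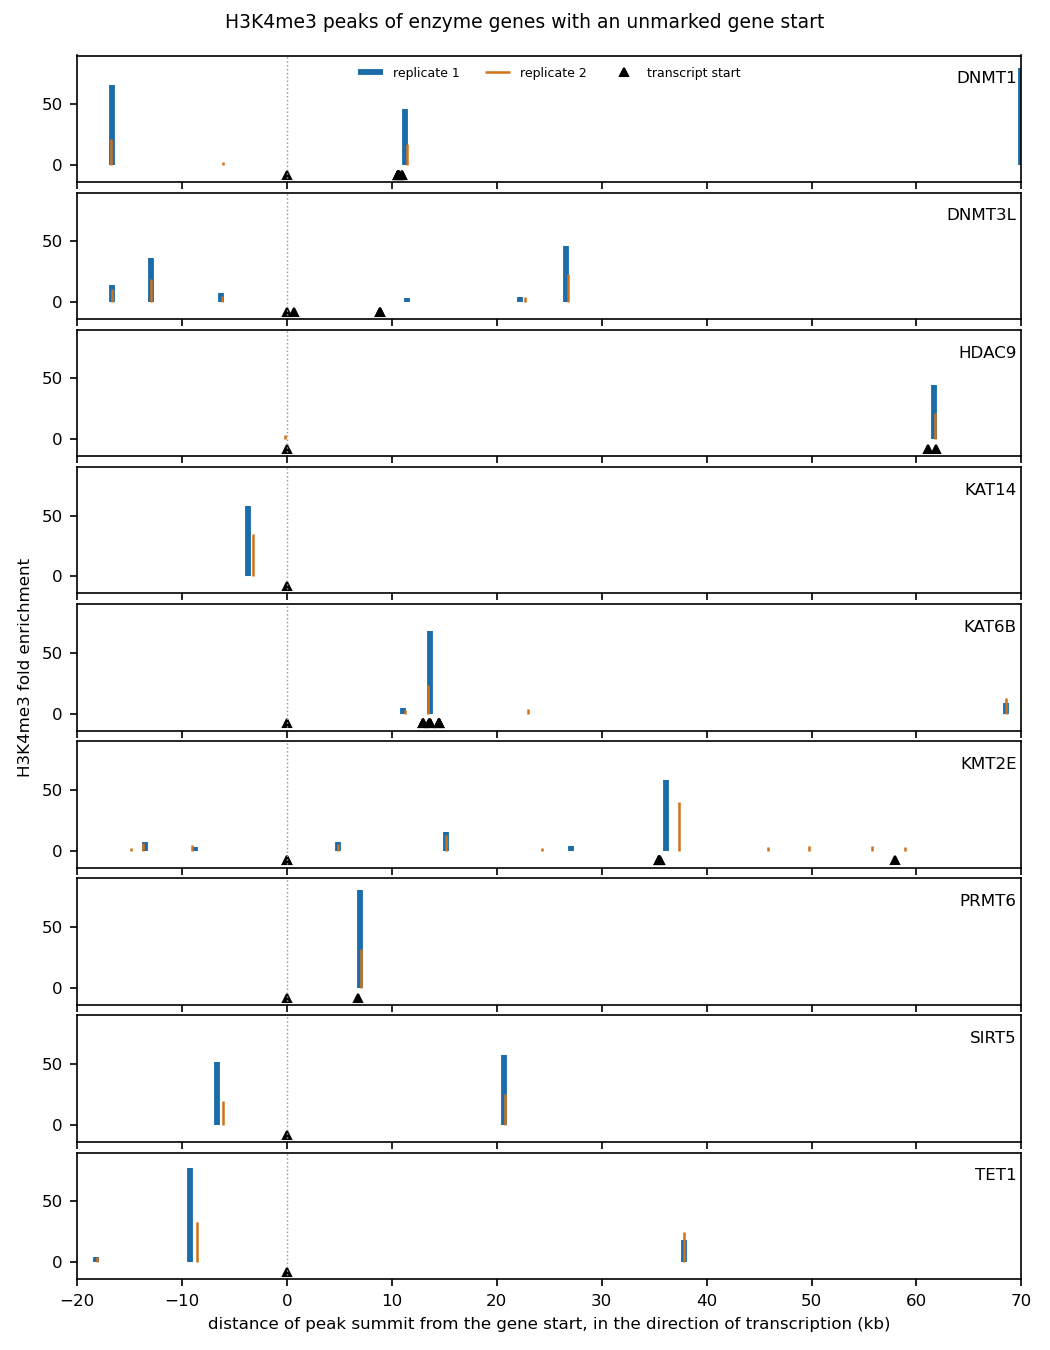
H3K4me3 peaks around 9 enzyme genes without H3K4me3 in both replicates at the gene start, with the distance of each summit from the gene start in kb (horizontal) and its fold enrichment (vertical) in replicate 1 (thick blue lines) and replicate 2 (thin orange lines), and annotated transcript starts as triangles. In DNMT1, HDAC9, KAT6B, KMT2E and PRMT6 the tallest peaks inside the gene stand over or beside a downstream triangle, and in KAT14, SIRT5 and TET1 the peaks nearest the start stand upstream of it, away from any triangle.

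At 3 genes the replicates differed for a histone mark. HDAC9, a class II deacetylase gene, had H3K4me3 at the gene start in replicate 2 alone, at 3.64, where the start of PRPS1L1 lies within 1 kb, and it had no H3K27ac there. Its main H3K4me3 peak was 61721 and 61748 bp inside the gene at 44.8 and 21.9, over 2 transcript starts, with weak H3K27ac at 5.17 and 5.24 and weak CTCF at 3.96 and 4.71. SETD1A, an H3K4 methyltransferase, had H3K4me3 at 60.2 and 27.8, but the peak edges lay 918 and 1059 bp from the gene start, either side of the 1 kb limit. Its H3K27ac was called in both libraries, at 34.7 and 36.5. PRMT8, known as a brain arginine methyltransferase, had H3K4me3 at 25.1 and 15.5, and H3K27ac in replicate 2 alone, at 3.11. PRMT8 was the 1 gene with H3K4me3 in both replicates and without H3K27ac in both.

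KMT2E, a protein of the KMT2 family that has a SET domain and binds H3K4me3, lay in the widest H3K27ac peak of either library. The gene spans chr9:104876301-105007161 on the plus strand. In replicate 1 the peak ran over 63625 bp, chr9:104853895-104917519, at a fold enrichment of 49.3, and ranked 1 by width among 74983 peaks. In replicate 2 it ran over 63725 bp at 30.8 and ranked 1 among 81164. The peak began upstream of the gene start and had its summit 33134 and 34785 bp inside the gene. The next widest H3K27ac peak of an enzyme gene, at SETD7, was 16303 and 15859 bp wide and ranked 221 in both libraries.

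H3K4me3 in KMT2E was also wide. Its peaks were 14769 and 19479 bp wide, at 58.2 and 40.3, and ranked 17 and 11 by width in their libraries. Their summits lay 36156 and 37402 bp inside the gene, and 4 transcript starts of KMT2E lay within 1 kb of the peaks. The starts of LOC106504991 and TRNAD-GUC also lay within 1 kb of them. The wide H3K27ac peak had these starts and that of LOC110262248 within 1 kb, so neither mark can be assigned to KMT2E alone. The gene start itself was covered by H3K27ac and had no H3K4me3 peak within 1 kb, so KMT2E was the 1 enzyme gene with H3K27ac in both replicates and H3K4me3 in neither. A CTCF peak stood inside the H3K27ac domain at 11684 and 11680 bp, at 34.3 and 37.1, and a weaker one at 35045 and 34987 bp, at 8.64 and 10.2.

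**Figure D4:**
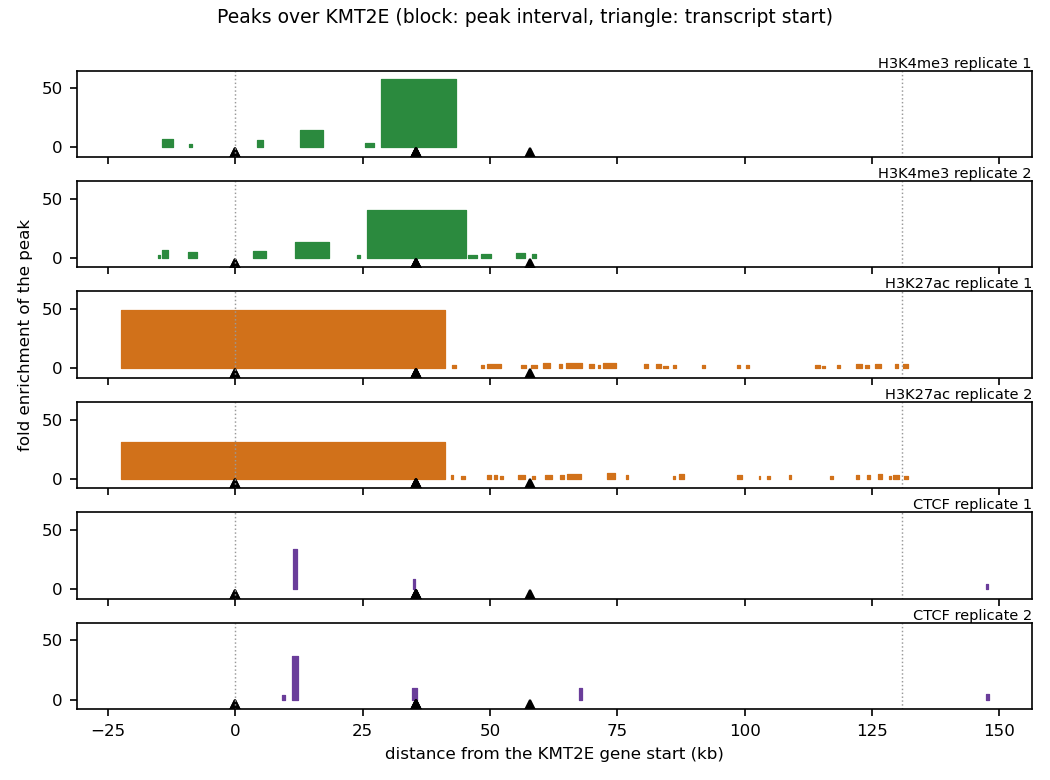
Peaks over KMT2E in the 6 libraries, drawn to scale with distance from the gene start in kb (horizontal) and fold enrichment (vertical), where each block spans a peak, triangles mark annotated transcript starts and dotted lines mark the ends of the gene. The H3K27ac block of 63625 and 63725 bp covers the gene start and the H3K4me3 block does not.

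The 5 starts with the highest mean H3K4me3 of the 2 replicates, among those with both marks in all 4 libraries, are named here, and this mean gives replicate 1 more weight because of its larger scale. SETD3, which encodes an actin histidine methyltransferase, had 80.9 and 40.8, the highest value of replicate 1. SIRT1, the nuclear NAD-dependent deacetylase, had 72.1 and 48.5, the highest value of replicate 2. KDM4C, an H3K9 demethylase, had 80.5 and 34.6. SETD2, the H3K36 methyltransferase of transcribed genes, had 68.1 and 41.5, and SIRT7, a nucleolar sirtuin, had 77.9 and 30.3. The order of the genes by H3K4me3 fold enrichment was not well shared by the replicates (Spearman rho 0.43 over 64 genes, a description only, as the libraries share an input and a cell type). Neighbouring ranks are therefore not distinguished. Over the 65 marked genes the medians were 55.8 and 27, beside 52.2 and 25.4 for all marked genes, a difference that is small against the range of 16.1 to 80.9 in replicate 1.

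For H3K27ac the highest single values were at KMT2E in replicate 1 and SIRT7 in replicate 2. The KMT2E value is that of the summit of its wide peak, 33134 bp inside the gene, and not of the gene start. By the mean of the replicates among starts with both marks, KAT5, the TIP60 acetyltransferase, had the highest mean, with 43.0 and 50.3. SIRT7, also among the highest for H3K4me3, had 35.0 and 51.6. KDM6A, an X-linked H3K27 demethylase, had 42.8 and 41.8. KMT5B, an H4K20 methyltransferase, had 32.9 and 49.7, and KAT7, a MYST acetyltransferase, had 36.9 and 44.9. Here the replicates ranked the genes alike (rho 0.96 over 64 genes). The median over 66 marked genes was 22.4 and 27, beside 16.5 and 19.6 over all marked genes, so in each library the enzyme genes had the higher median. Family medians ran from 11.3 and 11.8 for the 2 marked DNMT genes to 29.0 and 36.5 for the SETD genes.

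The breadth of H3K4me3 was measured as the bases covered by peaks within 5 kb of the gene start, and it was also shared by the replicates (rho 0.97 over 64 genes). Its median over 65 marked genes was 3522 and 3681 bp, beside 2972 and 3170 bp for all marked genes. SETD5 had the longest cover, 9230 and 9421 bp. SETD1B had 7908 and 7914 bp, and KMT2C, which like SETD1B belongs to the H3K4 methyltransferases, had 7139 and 7924 bp. KDM5B, a demethylase of the same mark, had 6655 and 7618 bp, and KAT6A, a MYST acetyltransferase, had 6344 and 6935 bp. The shortest cover was at KAT2A, the GCN5 acetyltransferase, with 1309 and 1443 bp. HDAC8, an X-linked class I deacetylase, had 1683 and 1813 bp, SETD4 1764 and 1776 bp, KAT5 1930 and 1759 bp, and SIRT6 1960 and 1905 bp. KAT5 thus joined a high H3K27ac to a short H3K4me3 cover. Over all 64 genes cover and H3K27ac fold enrichment had a rho of 0.49 and 0.50.

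**Figure D5:**
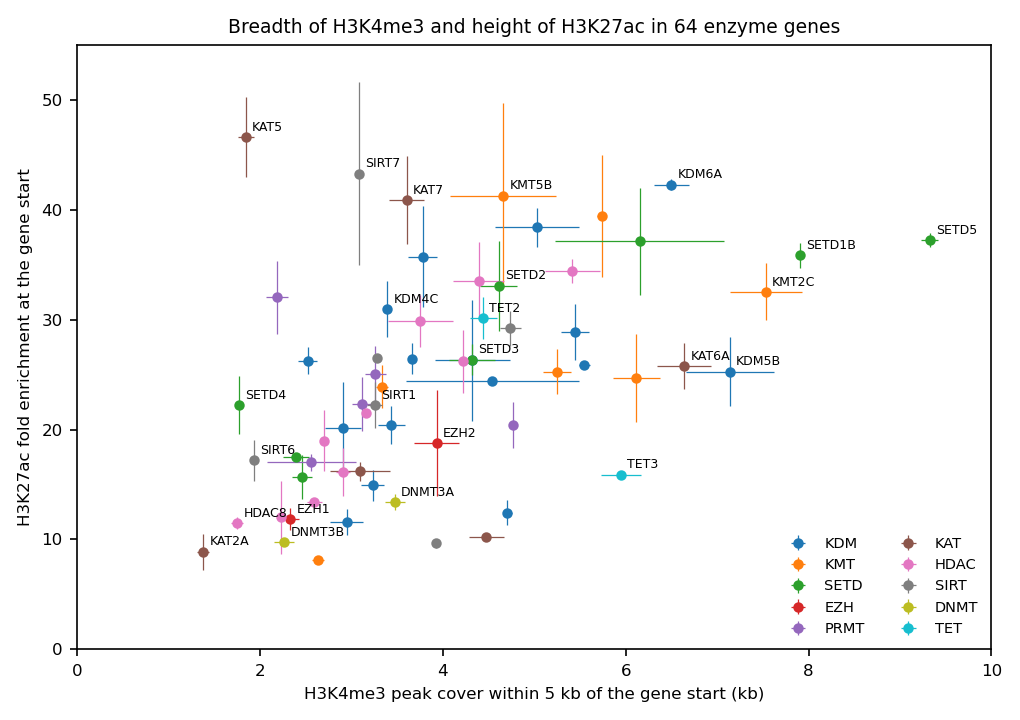
H3K4me3 peak cover within 5 kb of the gene start (horizontal, kb) against H3K27ac fold enrichment at the gene start (vertical) for the 64 enzyme genes with both marks in all 4 libraries, coloured by family, where each point is the mean of the 2 replicates and each bar runs between the replicate values. SETD5, SETD1B and KMT2C stand at the right, and KAT5 at the upper left.

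CTCF was called within 1 kb of 19 of 75 gene starts in both replicates, against 17.9% of all genes. All 3 targets were called at the start in all 6 libraries in 18 of 75 genes, against 14.4% of all genes. Among genes with CTCF at the start in both replicates, both histone marks were present in 18 of the 19 enzyme genes and in 80.6% of all such genes. The 19 included 4 KDM, 4 PRMT, 3 KMT and 3 SIRT genes, 2 KAT genes, and SETD1A, DNMT3A and TET3. No HDAC gene and no EZH gene was among them. With peaks allowed within 5 kb, 31 of 75 genes had CTCF in both replicates, against 35% of all genes.

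KDM3B, an H3K9 demethylase, had the strongest CTCF peak, at 61.2 and 88.1, with its summit 208 and 212 bp upstream of the gene start. Its mean fold enrichment was at percentile 99.9 among all genes with CTCF at the start in both replicates. The other KDM genes were lower. KDM6B, an H3K27 demethylase, had 18.9 and 26.4, and KDM5A, an H3K4 demethylase, had 15.4 and 17.0. KDM4A, which acts on H3K9 and H3K36, had the weakest peak of the 19 genes, at 5.39 and 3.35.

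Among the arginine methyltransferases, PRMT3, which methylates a ribosomal protein, had CTCF at 39.0 and 51.6. PRMT5, the main symmetric enzyme, had 35.9 and 44.5. PRMT1, the main asymmetric enzyme, had 24.0 and 26.7, and PRMT7, a monomethylating enzyme, had 16.7 and 22.4. The order of these 4 genes was the same in both replicates. For the lysine methyltransferases, KMT2B, which acts on H3K4, had 33.5 and 41.4, and KMT5A, which places the first methyl group on H4K20, had 26.5 and 29.4. SETD1A had 19.6 and 26.1, and KMT2D, an H3K4 methyltransferase of enhancers, had a weak peak at 9.74 and 6.78.

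SIRT4, a mitochondrial sirtuin, had CTCF at 38.6 and 39.9. SIRT7 had 24.2 and 35.4, and SIRT6, a chromatin-bound sirtuin, had 18.9 and 23.3. The acetyltransferase gene KAT5, at 18.7 and 21.6, was close to SIRT6, and KAT2B (PCAF) was lower, at 12.5 and 14.0. For the cytosine-modifying enzymes, DNMT3A had 27.2 and 35.3, and TET3 had a weak peak at 5.90 and 5.08. CTCF was called at 19 starts in replicate 1 (background 18.4%) and at 22 in replicate 2 (background 22.5%). DNMT3B, KDM2B and KDM4C had CTCF in replicate 2 alone, at 5.87, 3.50 and 3.92, all weak peaks in the deeper library. The median over the 19 genes was 19.6 and 26.4, beside 17.6 and 21.5 for all genes with CTCF at the start. The summit lay upstream of the gene start in 9 genes and downstream in 10, a median of 579 and 561 bp away, beside 404 and 401 bp for all genes.

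The DNA under these peaks was searched on both strands for a CTCF motif whose consensus reads NNNNNCCACNAGAGGGCGC. The motif was learned from the 600 strongest CTCF peaks of replicate 1 on odd-numbered autosomes. Enzyme gene sites on those chromosomes were not left out of the learning. The search covered 50 bases either side of each summit. A match was a score of at least 8.27 bits. This threshold was set so that 5% of the replicate 1 control stretches of the same length passed, so that share is not a finding. Among CTCF peaks on chromosomes not used to learn the motif, 80.2% and 81.3% held a match. Of the replicate 2 control stretches, 4.84% did. They came from the same chromosomes and the same distance from CTCF summits as those of replicate 1. Their share is therefore not an independent check. Of the 19 enzyme gene sites, 15 and 16 held a match, on the strand opposite to the gene in 11 and 12 of them. For all genes with CTCF at the start, 73.2% and 76.9% held a match, and 41.4% and 42% of these were on the opposite strand. The stretches at the 4 sites with the highest mean fold enrichment of the 2 replicates follow, read at the replicate 2 summit and in the direction of the motif, with the best match in capitals. They lie at chr2:140345883-140345983 (plus strand) for KDM3B, chr2:39033188-39033288 (minus strand) for PRMT3, chr7:76109789-76109889 (minus strand) for PRMT5 and chr14:40290124-40290224 (minus strand) for SIRT4.
KDM3B: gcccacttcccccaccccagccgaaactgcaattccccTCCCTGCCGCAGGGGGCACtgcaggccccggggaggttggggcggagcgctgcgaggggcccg
PRMT3: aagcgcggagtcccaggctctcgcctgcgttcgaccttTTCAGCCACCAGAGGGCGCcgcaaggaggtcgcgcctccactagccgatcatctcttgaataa
PRMT5: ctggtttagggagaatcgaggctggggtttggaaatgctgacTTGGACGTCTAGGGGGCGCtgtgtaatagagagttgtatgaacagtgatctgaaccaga
SIRT4: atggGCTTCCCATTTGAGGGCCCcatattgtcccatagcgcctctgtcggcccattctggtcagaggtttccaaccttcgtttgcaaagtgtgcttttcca
The PRMT3 site scored 24.2 bits, KDM3B 11.7 and PRMT5 9.31. The best stretch at SIRT4 scored 5.72, below the threshold.

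At starts with CTCF the median H3K4me3 fold enrichment was close to that at starts without it. The medians of H3K27ac fold enrichment and H3K4me3 cover were lower with CTCF, and these differences were not tested. Among the 18 genes with both marks and CTCF in both replicates, the median H3K4me3 fold enrichment was 57.1 and 27.1, and among the 43 with both marks and CTCF in neither it was 55.3 and 27. For H3K27ac the medians were 20.9 and 25.3, and 23.2 and 27.5. H3K4me3 cover had a median of 3402.5 bp with CTCF and 3930 bp without.

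Inside the genes, beyond 1 kb from the gene start, H3K27ac peaks were called in both replicates in 53 of 75 genes, against 43.9% of all genes. CTCF peaks were called in 52, against 42.8%, and H3K4me3 peaks in 34, against 33.3%. The enzyme genes were longer than most, with a median length of 41554 bp beside 20695 bp, and longer genes held more H3K27ac peaks (rho 0.70 and 0.74 over 75 genes, a description). Per 100 kb of gene, the enzyme genes together held 4.61 and 5.03 H3K27ac peaks, beside 3.53 and 3.91 for all genes. Single genes weigh heavily in these pooled densities. Of the 287 and 313 H3K27ac peaks, HDAC9 held 59 and 61 and KMT2E 26 and 25. For CTCF these densities were 1.88 and 1.99 beside 1.66 and 1.84, and for H3K4me3 1.22 and 1.90 beside 1.35 and 1.69. In introns lay 90.2% and 89.1% of the H3K27ac summits and 92.3% and 91.1% of the CTCF summits. Neither the share for all genes nor the intron share of gene length was computed, so these values have no background.

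HDAC9, at chr9:87164400-88192803 the longest of these genes with 1028404 bp, held the most peaks of every kind, 59 and 61 of H3K27ac, 20 and 20 of CTCF and 20 and 30 of H3K4me3. KMT2E followed with 26 and 25 H3K27ac peaks, most of them weak and beyond the wide domain. HDAC4, a class II deacetylase gene of 279030 bp, had 13 and 16, KDM2A, an H3K36 demethylase, 14 and 13, and KAT6B 13 and 13. In peaks of H3K27ac per 10 kb of gene, HDAC9 had 0.57 and 0.59 and KMT2E 1.99 and 1.91. For CTCF, KDM4C had 8 and 7 peaks in 436444 bp, KDM2B 7 and 6 in 145973 bp, HDAC4 5 and 5, and HDAC8 4 and 4 in 240500 bp.

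Within 20 kb outside the genes, H3K27ac peaks were called in both replicates for 65 of 75 genes, against 66.6% of all genes, and H3K4me3 peaks for 53, against 59.7%. CTCF peaks were called for 50, against 66%, a share near the background. Part of these flanking peaks lay within 1 kb of the start of another gene. The shares were 43.9% and 41% for H3K4me3, 28.6% and 23.4% for H3K27ac and 20.4% and 21.2% for CTCF. They were not computed for all genes. At 19 of the 75 enzyme genes the start of another gene lay within 1 kb of their own, against 18.2% of all genes, and there a peak cannot be assigned to 1 of the pair.

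Partners and enzymes outside the symbol rule were read in the same way from a list of 67 genes, of which 62 were measured. Both H3K4me3 and H3K27ac were called in all 4 libraries at 54 of the 62 starts, against 58.9% of all genes. All 9 PRC2 genes measured, EED and SUZ12 among them, had both marks, and so did all 8 genes of the COMPASS complexes that carry H3K4 methyltransferases, such as WDR5 and ASH2L. Of 16 lysine methyltransferases measured, 12 had H3K4me3 in both replicates. NSD1 had it in replicate 1 alone, at 41.8, and NSD3, SMYD1, known from striated muscle, and PRDM2 had none. Elsewhere on the list H3K4me3 was missing in both replicates at the starts of PHF8, UHRF1, the partner that brings DNMT1 to replicated DNA, and MBD2. For NSD1, NSD3, PHF8 and UHRF1 another annotated transcript start was marked in both replicates. CTCF was called in both replicates at 10 of the 62 starts, a share near the 17.9% of all genes.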

How the data were processed

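The deposited peak lists came from ChIP-seq of PEFs, 2 libraries each for H3K4me3, H3K27ac and CTCF; the input libraries have no list. The authors aligned reads to Sscrofa11.1 with Bowtie2, kept uniquely mapped pairs, removed duplicates and called peaks in each library with MACS2. Each deposited line gives a fold enrichment over control, a −log10 p-value, a −log10 q-value and a score; the score was not used. The largest q in the lists was 0.0499, above the cut-off that the methods state, so a called peak here is any deposited one. Replicates were not pooled.

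Peaks were joined to NCBI RefSeq genes of the same build, with Python 3.11.15, numpy 2.4.6 and pandas 2.3.3. At a gene start a peak interval had to overlap the 1 kb either side by at least 1 bp, and the strongest such peak gave the value. Gene body and flanking (20 kb) peaks were placed by summit, more than 1 kb from the gene start. Joins were tested on simulated peaks.

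The genes, lists and naming rule were chosen with earlier results of these data known. Values were named for genes without H3K4me3 or with differing replicates, for genes with CTCF at the start, for the 5 genes highest or lowest in each measure, and for all DNMT, TET and EZH genes.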

Additional observations from a re-analysis of the deposited data

How the results depend on the processing

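Over 12 results, 72 alternatives were computed, and 67 stayed within a set limit. For a count the limit was a change of 1.5 times, and counts near the full number of genes could fall but not rise by that much. For a level it was the standard deviation of the single-replicate medians, which leaving out 1 replicate can hardly exceed. The median H3K4me3 fold enrichment was thus counted among the 67 although it ran from 27 to 55.8. Requiring the summit within 1 kb lowered the genes with H3K4me3 at the start to 39 (background 52.2%) and those with both histone marks to 34 (background 41.7%). Windows changed the rest. CTCF within 5 kb was found at 31 gene starts (background 35%), and CTCF within 10 kb of the gene flanked 32 genes (background 45.3%). H3K4me3 cover within 2 kb had a median of 3001.5 bp, beside 2586.5 bp for all marked genes. Using 1 replicate alone, H3K4me3 was at 66 starts with either (background 69.6%) and H3K27ac at 66 to 67 (61.3% to 62.7%). CTCF was at 19 to 22 (background 18.4% to 22.5%). Both marks were at 65 starts, and at 54 starts of related genes, with either replicate (background 59.4% to 60.6%). Median H3K4me3 cover was 3522 to 3681 bp, median H3K4me3 fold enrichment 27 to 55.8 and median H3K27ac fold enrichment 22.4 to 27. Genes with peaks in the body numbered 54 to 57 for H3K27ac (background 46.4% to 48.8%) and 52 to 55 for CTCF (43.7% to 45.7%). Genes with flanking peaks numbered 65 to 68 for H3K27ac (background 68.3% to 69.7%) and 50 to 54 for CTCF (66.9% to 69.5%). The flanking CTCF counts were thus near the background. Leaving out genes with another start within 1 kb, H3K4me3 marked 47 of 56 starts (background 63.1%). No paired analysis was possible because no result comes from a test. The depth behind a peak is unknown, so a missing peak does not show that a mark is absent.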

Other observations

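Besides the genes whose own start was unmarked, several enzyme genes carried H3K4me3 within 1 kb of a second annotated start. Of the 75 genes, 47 have more than 1 annotated transcript start, and 18 have one more than 2 kb from the gene start. These counts were not made over all genes. Only a gene with more than 1 annotated start can be called with a marked internal start. Overlapping H3K4me3 peaks of both replicates lay within 1 kb of such an internal start in 11 of 75 genes (7.65% of all genes), and 6 of these (DNMT3A, HDAC4, HDAC5, KDM2A, KDM2B and KMT5A) were also marked at the gene start in both replicates (4.57% of all genes). In DNMT3A the internal peak had its summit 84154 and 84129 bp from the gene start, at 35.6 and 15.5, beside 56.0 and 16.5 at the gene start. In KDM2A it lay at 101772 and 101960 bp, at 55.7 and 33.9, and in replicate 2 it was higher than the peak at the gene start (57.2 and 23.1). This KDM2A peak did not cover an annotated start, and its edges lay 875 and 729 bp from the nearest one, at 99212 bp. In KDM2B it lay at 45443 and 45571 bp, at 31.0 and 17.7. KMT5A had it at 6396 and 5256 bp, at 49.8 and 20.4, and HDAC5 at 13496 and 13501 bp, at 39.1 and 19.1. The internal peak of HDAC4, at 82039 and 82067 bp, was the weakest of the 6, at 14.3 and 4.86. Its edges lay 113 and 154 bp from the nearest annotated start.

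The lineage genes with H3K4me3 but without H3K27ac included EPCAM, at 42.7 and 20.6, and KDR, at 25.4 and 13.3. NAA60 was the 1 related chromatin gene with H3K4me3 in both replicates, at 51.4 and 22.9, and H3K27ac in neither.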
